A study of Homo sapiens with 2 samples.

Results

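The genes described here write and erase N6-methyladenosine (m6A), the methyl mark on adenosines inside messenger RNA. There were 8 of them: METTL3, METTL14, WTAP, VIRMA, ZC3H13 and RBM15, which belong to the methyltransferase complex, and FTO and ALKBH5, which are demethylases. Their chromatin contacts were read from METTL3 HiChIP, an assay that ligates DNA ends lying close together in the nucleus and enriches, with an antibody, the ligated fragments that carry the protein of interest. The data were 1 library of senescent cells and 1 library of control cells, both of IMR90, a line of human embryonic lung fibroblasts labelled WT in genotype. Senescence was brought on by inducible expression of ER:RAS, a fusion of the estrogen receptor with H-RASG12V. The labels give neither the inducing agent nor its duration, nor whether the control cells carry the fusion. Contacts carry no expression values, so the fibroblast label could not be set against marker genes.

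The deposited lists pair genomic intervals, called anchors here, and count the paired-end tags (PETs) that join them. A contact was assigned to a gene when at least 1 bp of either anchor lay in a fixed hg19 window around the gene. The windows were 30 to 420 kb long and covered 790 kb together. They took in 77 of the 150390 senescent interactions, with 89 PETs, and 4 of the 12221 control interactions, with 4 PETs. All intervals are 95% intervals for counting error, and with 1 library per group no difference has a replicate check or a p-value.

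As background, METTL3 transfers the methyl group and METTL14 holds the RNA substrate beside it. WTAP, VIRMA, ZC3H13 and RBM15 make up the regulatory part of the complex. WTAP brings the catalytic pair into nuclear speckles, VIRMA is a large scaffold, ZC3H13 keeps the complex in the nucleus and RBM15 binds RNA and directs methylation to it. FTO and ALKBH5 are iron-dependent dioxygenases that remove the mark. METTL3 also associates with chromatin, which is what the HiChIP antibody recovers. The question here is therefore how contacts recovered with a METTL3 antibody fall on the genes of the methylation machinery itself.

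The promoters of 4 of the genes are shown, with the contacts described further on. The windows of WTAP and ALKBH5 held the only contacts of more than 1 PET, METTL14 had few contacts and ZC3H13 had none. METTL14 is not the low end among listed genes: FTO and VIRMA had fewer senescent PETs per length of window. Each sequence is the 250 bases before the annotated start in RefSeq (GRCh38.p14), read 5′ to 3′ on the gene's strand (plus for all but ZC3H13, which is on the minus strand). Capitals mark the dinucleotide CG, the substrate of DNA methylation, which reads the same on both strands.
WTAP, first of 2 annotated starts: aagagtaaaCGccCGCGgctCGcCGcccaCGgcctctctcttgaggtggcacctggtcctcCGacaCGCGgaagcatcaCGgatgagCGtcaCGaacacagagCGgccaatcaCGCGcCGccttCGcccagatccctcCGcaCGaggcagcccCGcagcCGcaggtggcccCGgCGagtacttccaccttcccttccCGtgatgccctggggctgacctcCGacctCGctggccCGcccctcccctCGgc
ALKBH5: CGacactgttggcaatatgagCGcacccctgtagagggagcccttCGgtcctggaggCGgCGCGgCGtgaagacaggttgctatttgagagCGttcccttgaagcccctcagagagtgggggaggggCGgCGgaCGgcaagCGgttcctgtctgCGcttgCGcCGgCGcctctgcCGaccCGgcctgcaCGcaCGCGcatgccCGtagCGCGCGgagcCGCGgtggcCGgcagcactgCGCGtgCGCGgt
METTL14: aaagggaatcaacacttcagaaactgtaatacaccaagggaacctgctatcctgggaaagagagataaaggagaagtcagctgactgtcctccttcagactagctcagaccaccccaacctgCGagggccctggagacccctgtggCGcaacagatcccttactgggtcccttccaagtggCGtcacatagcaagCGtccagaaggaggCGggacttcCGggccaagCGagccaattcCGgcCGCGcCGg
ZC3H13: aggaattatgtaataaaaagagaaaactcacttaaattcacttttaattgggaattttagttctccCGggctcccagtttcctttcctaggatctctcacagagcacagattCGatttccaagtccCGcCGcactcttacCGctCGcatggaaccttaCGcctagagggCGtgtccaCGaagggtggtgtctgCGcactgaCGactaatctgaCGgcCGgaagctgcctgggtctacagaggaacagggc
The ALKBH5 sequence held 32 CG, a number reached by 9.52% of the 35116 RefSeq promoters. The WTAP starts held 28 and 31 CG, reached by 15.9% and 10.9% of promoters. METTL14 held 11 CG (50.3%), ZC3H13, METTL3 and RBM15 held 13 CG each (46.6%) and FTO held 17 CG (39.0%). Over all promoters the median was 11 CG, with 93.9% holding at least 1. A link between the number of CG and the contacts was not tested, and none is read from these numbers. GATC, the site of the enzyme MboI that cut the chromatin, was in the 250 bases of METTL14, ZC3H13, FTO and the first WTAP start, and in 35.8% of all promoters. VIRMA was left out of the promoter matching and is named without a sequence. No hg19 annotation was used here, so which anchor covers which gene start is not stated.

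The senescent library listed contacts at 7 of the 8 genes, all but ZC3H13. The control library listed contacts at FTO alone. Consecutive 40-kb windows of the genome give the background: 44.9% had at least 1 senescent interaction and 11.5% had at least 1 control interaction, while 35.0% had a senescent interaction and no control one. The share depends on length. It was 40.7% of 30-kb windows and 73.2% of 420-kb windows for the senescent library, and 9.47% and 40.6% for the control library. These windows include regions without genes, and the members were not matched to them.

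Scaled to each library's own deposited PETs, the 8 genes together held 48.3 PETs per 100000 in the senescent library, against 27.8 per 100000 in the control library. The ratio was 1.74, with an exact conditional binomial interval of 0.655 to 6.51 that held 1. Unscaled, the ratio was 22.3 (8.39 to 83.4), since the senescent table held 12.8 times as many PETs in all. Without FTO the other 7 genes had 74 senescent PETs and no control PET. A gene missing from the control list sets no upper limit, because only joined pairs of anchors were listed, and no fold is given for it.

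**Figure D1:**
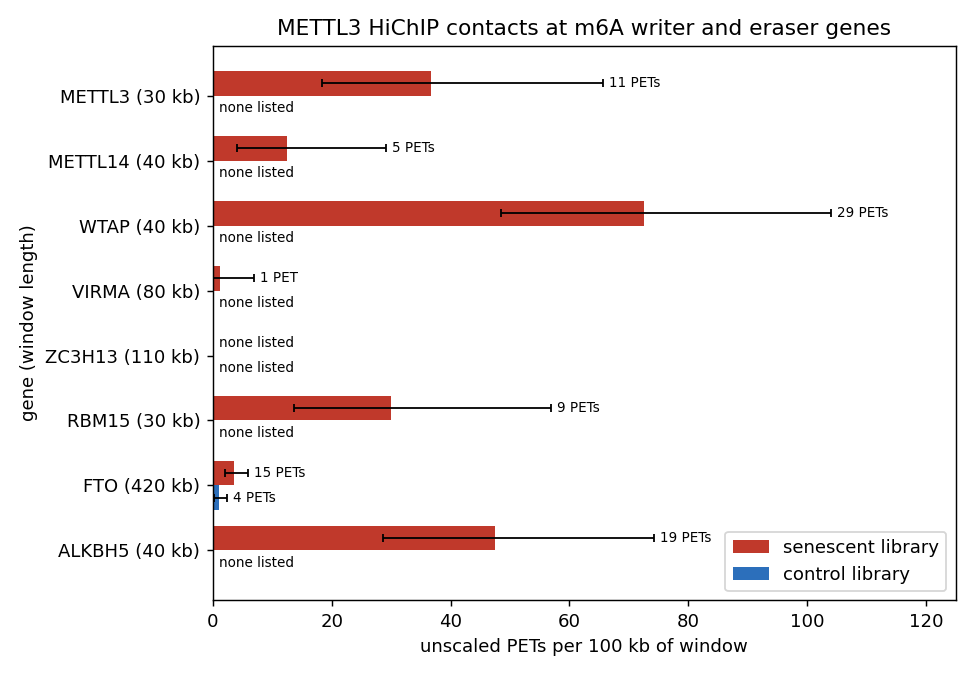
Unscaled PETs per 100 kb of window at each gene, senescent library above and control library below, with exact Poisson intervals (95%, counting error only) and the PET counts as labels. WTAP and ALKBH5 had the highest senescent levels, 72.5 and 47.5 PETs per 100 kb, and FTO was the only gene with control PETs.

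Per length of window, the genes ran in the order WTAP, ALKBH5, METTL3, RBM15, METTL14, FTO, VIRMA and ZC3H13 in the senescent library. WTAP had 72.5 PETs per 100 kb (48.6 to 104, exact Poisson interval) and ALKBH5 had 47.5 (28.6 to 74.2). METTL3 had 36.7 (18.3 to 65.6) and RBM15 had 30 (13.7 to 56.9). METTL14 had 12.5 (4.06 to 29.2), FTO had 3.57 (2.00 to 5.89) and VIRMA had 1.25 (0.0316 to 6.96). From WTAP to VIRMA each interval overlapped that of the next gene in this order, and ZC3H13, with no PET, has no interval. Overlap of intervals does not show that levels were alike. Genes were not tested against each other, so the order of adjacent places is left undecided. The interval of WTAP lay above those of METTL14, FTO and VIRMA, and the intervals of ALKBH5, METTL3 and RBM15 lay above those of FTO and VIRMA. The catalytic subunit and its partner METTL14 were not distinguished from each other by their intervals, and writers and erasers did not form separate blocks in the order. The order depended on the window: widened by 20 kb on each side, ALKBH5 had 60.0 PETs per 100 kb, WTAP 57.5, RBM15 27.1, METTL14 17.5, METTL3 15.7, VIRMA 4.17, FTO 3.70 and ZC3H13 2.0.

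METTL3, the catalytic subunit, had 11 senescent interactions of 1 PET each, from 3 anchors on chromosome 14, and no control interaction. A single anchor at 21977537 to 21980841 (hg19) took part in 8 of the 11. As many partners were seen at 12.8% of senescent anchors. Of the 11 contacts, 7 led to lower coordinates, the side on which RefSeq orders TOX4, RAB2B and CHD8. Another 3 led to higher coordinates, the side of SALL2, and 1 joined 2 anchors within the window. With so few contacts no lean to either side is read. Spans, measured between anchor midpoints, ran from 5.91 to 1377 kb with a median of 73.5 kb (18.6 to 1083 kb, order-statistic interval). The longest joined the main anchor to 23355042 to 23357839. One outside anchor, at 21944185 to 21947207, was joined to 2 of the METTL3 anchors. Of 30-kb windows in the genome, 11.8% held at least as many senescent PETs as METTL3. The control library listed no anchor within 226 kb of the window, and 1 interaction within 500 kb on either side, against 45 in the senescent library.

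METTL14, the RNA-binding partner of METTL3, had 5 senescent interactions of 1 PET each and no control interaction. They came from anchors on chromosome 4 at 119605480 to 119607574, with 3 contacts, and at 119631790 to 119635135, with 2. The first anchor reached only to higher coordinates and the second only to lower ones. Spans ran from 80.1 to 967 kb with a median of 431 kb, and the longest ended at 120572029 to 120574834. At least as many PETs were held by 26.0% of 40-kb windows. On chromosome 4, 34.2% of 40-kb windows were listed in the senescent library, against 12.8% in the control library. The surroundings of METTL14 were listed in both libraries, unlike its window: with 500 kb on either side there were 69 senescent and 31 control interactions. The nearest control anchor began 9.62 kb beyond the window, and so did the nearest senescent anchor on that side.

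WTAP, the adaptor that brings the catalytic pair to nuclear speckles, had the most contacts of the 8 genes. Its window held 23 senescent interactions with 29 PETs and no control interaction. At least as many senescent PETs were held by 3.91% of 40-kb windows in the genome. The contacts were spread over 4 anchors on chromosome 6. The widest, at 160175252 to 160184734 (9.48 kb), had 9 partners and 14 PETs. The anchors at 160146289 to 160150240 and 160143654 to 160145666 had 7 and 6 partners, and the anchor at 160136564 to 160140009, with 3, lay in the window by its last 9 bp.

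Repeated contacts at WTAP, those of at least 2 PETs, spanned 8.35 to 64.4 kb. The spans of repeated contacts over the whole library were not computed, so no trait of WTAP is read from this. The interaction with the most PETs joined the wide anchor to 160186807 to 160189879, 8.35 kb away, with 4 PETs and a value of 0.00994 in the authors' deposited table. The other 3 repeated contacts had 2 PETs each. An outside anchor at 160112914 to 160118246 was joined to 3 of the 4 WTAP anchors, with 5 PETs in all. Some single PETs reached much farther. Of the 23 interactions, 9 spanned more than 500 kb, 7 of them toward lower coordinates, and the longest ran 1778 kb to 158363186 to 158369349. The share of such spans over all senescent interactions was not computed. The median span was 262 kb (35.3 to 806 kb). RefSeq places SOD2, the mitochondrial superoxide dismutase gene, and ACAT2, an acetyl-CoA acetyltransferase gene, beside WTAP, so that contacts of the window cannot be assigned to WTAP alone.

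The control library came close to WTAP without a contact in it. Its nearest anchors, at 160181039 to 160183134 and 160120795 to 160123792, lay 1.04 kb above and 16.2 kb below the window, and had 1 partner each. The first of these falls inside the wide senescent anchor, which was, among the 14 senescent anchors in the windows of all genes but FTO, the only one to overlap a control anchor. With 500 kb on either side, the region had 106 senescent and 2 control interactions. On chromosome 6 as a whole, 47.2% of 40-kb windows were listed in the senescent library, against 17.2% in the control library.

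VIRMA, the scaffold of the regulatory part, had 1 senescent interaction of 1 PET and no control interaction. It joined an anchor on chromosome 8 at 95512420 to 95514467 to one 184 kb away, at 95328921 to 95330718. The count depended on the edge of the window. A senescent anchor with 2 partners ended 1.31 kb below it, and widening by 20 kb on each side gave 5 senescent PETs. Among 80-kb windows, 54.8% were listed in the senescent library, against 17.5% in the control library. At most 1 senescent PET was held by 51.9% of these windows. That share includes the windows with no PET, so it does not tell how common a single PET was. With 500 kb on either side there were 88 senescent and 10 control interactions.

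ZC3H13, which keeps the complex in the nucleus, was the only one of the 8 genes with no contact in either library. Among 110-kb windows, 58.8% were listed in the senescent library, against 21.0% in the control library. Chromosome 13 was sparser in the senescent library than the genome: 34.4% of its 40-kb windows were listed there, against 44.9% of all. In the control library the shares were 11.3% and 11.5%. The absence depended on the edge of the window. A senescent anchor on chromosome 13 at 46630922 to 46634373 began 921 bp beyond it, with 3 interactions of 1 PET each that spanned 38.1, 531 and 601 kb. The nearest control anchor was 415 kb away. With 500 kb on either side there were 22 senescent and 6 control interactions, the fewest senescent ones of the 8 genes.

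RBM15, the RNA-binding subunit, had 9 senescent interactions of 1 PET each and no control interaction. The anchor on chromosome 1 at 110879286 to 110884516 held 7 of them, a number of partners reached by 17.5% of senescent anchors, and the anchor at 110887562 to 110891234 held 2. No contact joined these anchors to each other. Spans ran from 26.6 to 884 kb with a median of 138 kb (29.7 to 290.4 kb), and 6 partners lay at lower and 3 at higher coordinates. The longest ended at 111764799 to 111767271. Of 30-kb windows, 14.4% held at least as many senescent PETs. With 500 kb on either side there were 147 senescent interactions and 1 control interaction, and no control anchor lay within 322 kb.

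**Figure D2:**
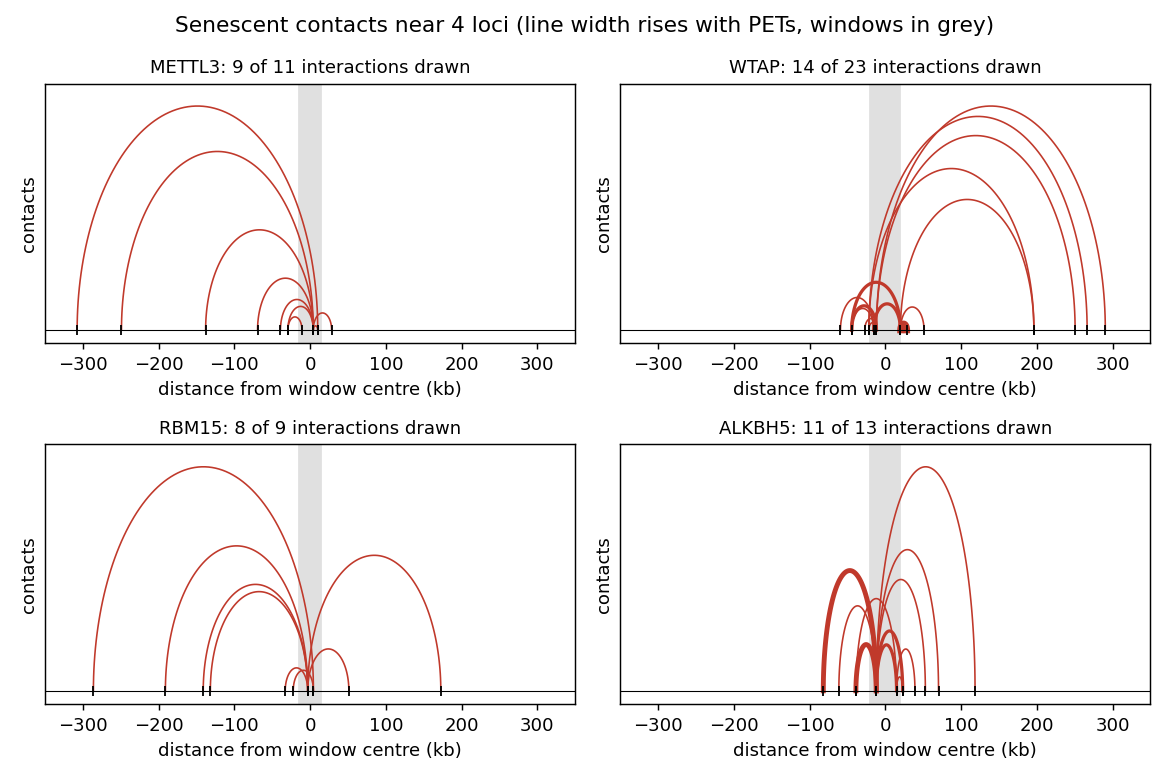
Senescent contacts at METTL3, WTAP, RBM15 and ALKBH5 as arcs between anchor midpoints, by distance from the window centre in kb, with the window in grey and line width rising with PETs. Contacts reaching beyond 350 kb were left out, 2, 9, 1 and 2 at the 4 genes. The thick arcs at ALKBH5 and WTAP are the contacts of 2 to 4 PETs.

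ALKBH5, a nuclear demethylase, had the lowest median span of the 7 genes with senescent contacts. Its window held 13 senescent interactions with 19 PETs and no control interaction. At least as many senescent PETs were held by 7.79% of 40-kb windows. The anchor on chromosome 17 at 18084889 to 18091266 was 6.38 kb wide and took part in 10 of the 13 interactions, with 16 PETs. Only 6.85% of senescent anchors had as many partners. The second anchor, at 18113705 to 18115916, had 4 partners, 1 of them the first anchor.

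Of the 13 ALKBH5 interactions, 4 had at least 2 PETs (30.8%), as had 4 of the 23 at WTAP (17.4%), and they held 10 PETs at each gene. Over all senescent interactions the share was 14.4%, and with so few contacts no difference from it is read. The strongest ALKBH5 contact joined the main anchor to 18016225 to 18020010, 69.96 kb away, with 3 PETs and a value of 0.000165 in the authors' deposited table. Another contact of 3 PETs led to 18055893 to 18066462, 26.9 kb away, and that anchor and 18120332 to 18125442 were each joined to both ALKBH5 anchors. Contacts went evenly to either side, 6 to lower and 6 to higher coordinates, where RefSeq orders MYO15A and LLGL1. The median span was 53.6 kb (26.7 to 130 kb), and 10 of 13 spans were under 100 kb. The median over all senescent interactions, 97.1 kb, lay inside that interval. The longest was a single PET that ran 1832 kb to 16253893 to 16257479. With 500 kb on either side of the window there were 194 senescent and 0 control interactions, and the nearest control anchor was 1031 kb away. Such flank counts, here and at the other genes, are unscaled, and no share over windows of that length was computed. Chromosome 17 had 10050 senescent and 285 control interactions in all. Over the whole of chromosome 17, 72.7% of 40-kb windows were listed in the senescent library, against 11.3% in the control library.

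Contacts of at least 2 PETs were found at 2 of the 8 genes in the senescent library, WTAP and ALKBH5, against 18.7% of 40-kb windows. Over the 77 senescent interactions, 8 had at least 2 PETs (10.4%, 4.59 to 19.4%, exact Clopper-Pearson interval). This was not distinguishable from the 14.4% of all senescent interactions. In the control library none of the 4 interactions had more than 1 PET, and 13.3% of all control interactions did. The value in the authors' deposited table was at most 0.05 for 53 of the 77 senescent and 1 of the 4 control interactions, against 60.4% and 55.6% of all interactions of each library.

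FTO, a demethylase gene whose window is 420 kb long, was the only one of the 8 with contacts in both libraries. It had 15 senescent interactions and 4 control interactions, all of 1 PET. Per 100000 deposited PETs this was 8.14 in the senescent library, against 27.8 in the control library, a ratio of 0.293 with an interval of 0.0932 to 1.21 that held 1. Among 420-kb windows with at least 4 control PETs, 62.5% had a scaled ratio at least 2-fold lower in the senescent library. On chromosome 16 this held for 6 of 18 such windows (33.3%). These windows, like FTO, were kept for their control PETs, which favours a lower ratio, and nothing is read from the shares. At least as many PETs were held by 46.3% of 420-kb windows in the senescent library, against 19.7% in the control library.

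The control contacts of FTO lay far from any other control contact. Chromosome 16 had 6812 senescent and 109 control interactions, and FTO held 0.174% of the senescent and 3.36% of the control PETs there. Scaled to the PETs of chromosome 16, the ratio at FTO was 0.0519 (0.0165 to 0.215), and without scaling it was 3.75 (1.19 to 15.5), so the direction followed the scaling. The nearest control anchor outside the FTO window was 2431 kb away, at 56580724 to 56582820. With 500 kb on either side of the window there were 30 senescent interactions and the same 4 control interactions.

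Of the 4 control contacts, 3 joined the same anchors to one another. Anchors at 53801654 to 53803747, 53842017 to 53844733 and 53850254 to 53852624 were all joined to each other, over 40.7, 48.7 and 8.06 kb. The longest of the 4 contacts shared no anchor with them and joined 53728300 to 53730881, of which 881 bp lay in the window, with 53854597 to 53857102 over 126 kb. All 5 control anchors lay below the centre of the window, toward RPGRIP1L in the RefSeq order, and no control contact left the window. The value in the authors' deposited table was 0.0158 for the longest contact and 0.555 for the other 3.

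The senescent contacts of FTO reached out of the window. They came from 12 anchors, 10 of them below the centre, with at most 3 partners each. Both ends lay inside the window in 5 of 15 cases, 3 led to lower coordinates and 7 to higher ones, the side on which RefSeq orders the homeobox genes IRX3, IRX5 and IRX6. Spans ran from 8.06 to 1627 kb with a median of 458 kb (104 to 730 kb), against a median of 44.7 kb and a highest value of 126 kb in the control library. Some distant anchors were reached more than once: 54315211 to 54325628 was joined to 2 FTO anchors, and so was 54961748 to 54966479. That second anchor received its contacts from neighbouring FTO anchors at 53808768 to 53811057 and 53814413 to 53816420, over 1154 and 1149 kb. The longest contact joined 53914230 to 53917308 with 55541706 to 55544306.

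One FTO contact was the same in both libraries. It joined the anchors at 53842017 to 53844733 and 53850254 to 53852624, whose coordinates were identical in the senescent and control lists, over 8.06 kb with 1 PET in each. This was 1 of 77 senescent interactions (1.30%, 0.0329 to 7.02%) and 1 of 4 control interactions (25%, 0.631 to 80.6%). Over each whole library, interactions found in both held 3433 of 184165 senescent PETs and 2751 of 14373 control PETs. Low sharing was thus general, and no difference of these genes from the libraries is read from it. Of the FTO anchors, 4 of 12 in the senescent library overlapped a control anchor, and 4 of 5 in the control library overlapped a senescent one. The remaining control anchor, at the lower edge of the window, had no senescent counterpart. The share of overlapping anchors over each whole library was not computed.

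**Figure D3:**
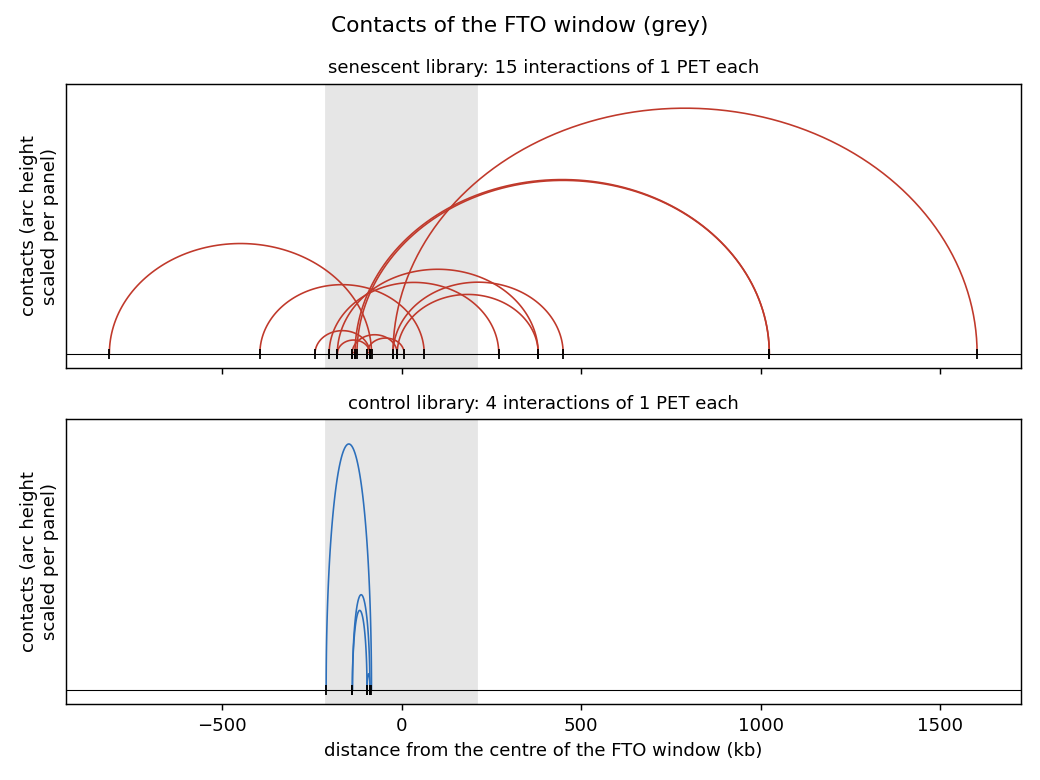
Contacts of the FTO window (grey) as arcs by distance from its centre in kb, senescent library above and control library below, each arc 1 interaction of 1 PET and arc heights scaled per panel. The 4 control contacts stay below the centre of the window, while 10 of the 15 senescent contacts end outside it.

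Over all the genes, senescent contacts spanned a median of 153 kb (80.1 to 290.4 kb), against 97.1 kb for all interactions of that library. The interval of the members held the library's median. The 4 control contacts, all at FTO, had a median of 44.7 kb, against 85.4 kb for all control interactions, with too few values for an interval. Spans over 500 kb numbered 19 among the 77 senescent contacts, 9 at WTAP and 5 at FTO, and 0 among the 4 control contacts. The share of such spans over each whole library was not computed, so no trait of these genes is read from the counts. Anchors in the windows were of ordinary width, with medians of 2898 bp in the senescent library, against 2506 bp in the control library, against 2927 and 2708 bp over all anchors of each. All 77 and 4 interactions stayed on 1 chromosome, as did every listed interaction, so contacts between the genes, which lie on different chromosomes, could not be seen.

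**Figure D4:**
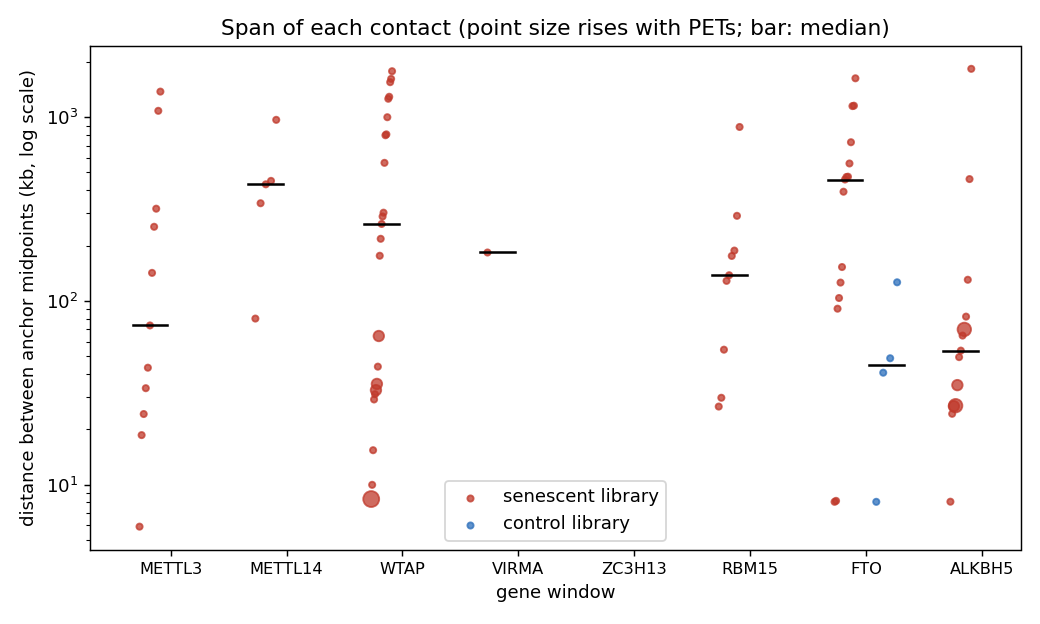
Distance between anchor midpoints of every contact at each gene, in kb on a log scale, senescent library left and control library right within each gene. Point size rises with PETs and bars mark medians, from 53.6 kb at ALKBH5 to 458 kb at FTO in the senescent library. The larger points, contacts of 2 to 4 PETs at WTAP and ALKBH5, lie below 70 kb.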

How the data were processed

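HiChIP interactions of 2 libraries were analysed, 1 senescent and 1 control. Per the submitters' processing notes, HiC-Pro 3.1.0 and the build hg19 were used. How loops and anchors were called, duplicates removed and interactions filtered is not stated there. The deposited count of PETs per interaction was taken from the authors' tables, as was a deposited value between 0 and 1, a p-value or q-value whose kind is not stated. The tables held 184165 senescent and 14373 control PETs. Only joined pairs of anchors are listed, so these totals are not sequencing depths. A bound against a floor of 3 PETs had been planned for genes without control PETs and was dropped for this reason.

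Interactions were counted once per gene in Python 3.11.15 (pandas 2.3.3, numpy 2.4.6; intervals from scipy 1.17.1), and the counting was tested on simulated interactions. Each simulated anchor lay wholly inside a window, with its partner in a different window. Anchors across a window edge and contacts within a window were therefore not tested. Anchors were joined to windows by an overlap of 1 bp. PETs were scaled to 100000 deposited PETs. Ratios have exact conditional binomial intervals, levels exact Poisson intervals, shares exact Clopper-Pearson intervals and medians binomial order-statistic intervals, and PCR copies would make them too narrow. Coordinates are 1-based in hg19. Background windows ran consecutively over the autosomes and X up to the last listed anchor. RefSeq tables of GRCh38.p14 served for the order of neighbouring genes and for the promoters of 7 of the 8 genes. VIRMA was left out of the promoter matching. No coordinates were carried between builds. For that reason anchors at gene starts, partner genes, other methyltransferase parts, readers and methyl donor genes were not analysed here.

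The named contacts follow a rule: for each gene and library the contact with the most PETs, the longest, the anchor with the most partners and contacts in both libraries. The members and lists were chosen with earlier results of these data known.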

Additional observations from a re-analysis of the deposited data

How the results depend on the processing

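With 1 library per group, no difference could be checked by leaving out a replicate. No paired analysis was possible because each group had 1 library. Scaling decided the ratios. Over the 8 genes the ratio of senescent to control PETs was 1.74 scaled to deposited PETs, 22.3 without scaling and 17.8 scaled to interactions found in both libraries, and 1.27 to 4.76 under the other alternatives that gave a value. At FTO it was 0.293, 3.75 without scaling, 3.01 scaled to interactions found in both libraries and 0.0519 scaled to chromosome 16, and 0.293 to 1.01 under the others that gave a value. Leaving out FTO, contacts inside a window or contacts of 1 PET left no control PET and so no ratio. The number of genes listed was 2 (senescent) and 0 (control) with at least 2 PETs. With windows widened by 20 kb, it was 8 (senescent) and 3 (control), METTL14 and WTAP being added to the control list. Both of these settings were chosen for this count after seeing the data. The median senescent span was 33.7 kb with at least 2 PETs, against 153 kb. For the PETs of single genes, 28 of 40 alternatives stayed within the counting interval and 12 moved beyond it. The 28 include every alternative at ZC3H13, where stricter settings could not change a count of 0. Widening took ZC3H13 from 0 to 3 PETs and VIRMA from 1 to 5 PETs. Both were counted as within the interval, so the tally is no measure of stability at these genes. The gene body alone was not run, for want of an hg19 annotation.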
